A study of Mus musculus with 2 samples.

Results

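The family of miR-148 and miR-152, called the miR-148 family below, was measured by microRNA sequencing in the intestine of 2 newborn mice, called pup 1 and pup 2 here. Its members are the 3 miRNA genes Mir148a, Mir148b and Mir152, found by matching the Ensembl gene identifiers in the counts to GENCODE, and they are 3 of 1973 miRNA genes counted. Each pup gave 1 library from 1 intestine. Both pups were of strain B6NCrl, at postnatal day 0, from the same pregnant female, with no treatment or mutation named in the labels. The labels give the tissue as intestine and name no segment of it, and no sex was recorded. The series has this 1 group only, so it holds no contrast between conditions, and the pups are 2 samples of that group.

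MicroRNAs are cut from hairpin transcripts, first in the nucleus by Drosha and then in the cytoplasm by Dicer, and guide Argonaute proteins to mRNAs that pair with the seed, bases 2 to 8 of the mature strand. The main products of the miR-148 family come from the 3p arm of the hairpin and carry the same seed, and such miRNAs are known to share targets. The family is known for repressing the DNA methyltransferase DNMT1 in human cells, and miR-148a is known as an abundant miRNA of liver and milk and as a repressor of the LDL receptor.

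The annotated 3p products are shown first, because the shared seed defines the family and the bases after it are what tell the members apart. The sequences are those of RefSeq on GRCm38.p6, where all 3 members were matched, and the capitals mark the seed.
mmu-miR-148a-3p: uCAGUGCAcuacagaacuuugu
mmu-miR-148b-3p: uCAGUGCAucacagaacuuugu
mmu-miR-152-3p: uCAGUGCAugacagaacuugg
The 3p products start with U and hold the seed CAGUGCA, and among 1738 mature sequences of the RefSeq table only these 3 had that seed. Counted from the 5′ end, miR-148b-3p differed from miR-148a-3p at 2 of 22 positions, as C9U and U10C. MiR-152-3p differed from miR-148a-3p at 3 of 21 compared positions, as C9U, U10G and U20G. It differed from miR-148b-3p at 2 of 21, as C10G and U20G. The members thus part at bases 9 and 10, directly after the seed, and near the 3′ end.

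The 5p arms show where the hairpins have diverged further, again with bases 2 to 8 in capitals.
mmu-miR-148a-5p: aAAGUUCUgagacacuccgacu
mmu-miR-148b-5p: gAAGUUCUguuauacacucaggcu
mmu-miR-152-5p: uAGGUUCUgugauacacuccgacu
The 5p products of Mir148a and Mir148b shared bases 2 to 8, AAGUUCU, while that of Mir152 had AGGUUCU there, a change of A3G. Their first bases were A, G and U in Mir148a, Mir148b and Mir152. MiR-148b-5p and miR-152-5p differed at 5 of 24 positions. The deposited counts are per hairpin gene and do not separate the arms, so how many reads came from the 3p or the 5p product was not measured here.

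The whole hairpins are shown because they are the features that were counted, with the 3p product in capitals.
Mir148a hairpin: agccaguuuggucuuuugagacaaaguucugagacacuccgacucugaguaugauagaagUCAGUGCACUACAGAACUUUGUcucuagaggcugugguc
Mir148b hairpin: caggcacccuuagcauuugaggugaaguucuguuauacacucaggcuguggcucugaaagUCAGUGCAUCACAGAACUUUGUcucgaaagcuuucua
Mir152 hairpin: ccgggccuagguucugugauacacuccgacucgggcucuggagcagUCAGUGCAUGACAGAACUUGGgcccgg
The hairpins of Mir148a and Mir148b were 99 and 97 bases long with 45.5% and 45.4% G or C, and their 3p product spanned bases 61 to 82 in each. The Mir152 hairpin was shorter, with 73 bases, had 61.6% G or C, and held its 3p product at bases 47 to 67. The search of 1005 hairpins took each in its own sense and as its reverse complement. The longest run of bases that the Mir148a and Mir148b hairpins shared with any other was 15, with each other in the same sense. For Mir152 it was 13, with the reverse complement of the Gm51275 hairpin. No mature sequence of the family occurred whole in another hairpin of the table. A read with several mapping places entered no gene's count, and the search covered hairpins only, not the rest of the genome.

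On GRCm38 the members lie on 3 chromosomes. Mir148a lies at chr6:51269812-51269910 on the minus strand, where no annotated gene of that strand contains it. The nearest protein-coding gene is Nfe2l3, 162760 bases away on the other strand. Mir148b lies at chr15:103285125-103285221 on the plus strand, in an intron of Copz1 in all 4 annotated transcripts and in intron 1 of a coding transcript of 9 exons. Mir152 lies at chr11:96850393-96850465 on the plus strand, within Copz2. It is in an intron of 3 of the 5 Copz2 transcripts and overlaps an exon of 0, and it is in intron 1 of a coding transcript of 9 exons. Copz1 and Copz2 are paralogs that encode zeta subunits of the COPI coat of Golgi vesicles. Those introns differ in size, with 16159 bases around Mir148b and 676 around Mir152, which lies 207 bases from the nearest exon. No annotated gene faces any of the 3 members on the opposite strand. Host mRNAs were not measured.

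Sequencing gave 6375694 reads for pup 1 and 8373497 for pup 2, and miRNA genes took 3567658 and 4683939 of them on their annotated strand. Of all 1973 genes, 314 reached 10 counts in both libraries and are called detected. All 9 listed epithelial miRNAs (Mir192, Mir215, the Mir194 genes and the miR-200 family) were detected in tissue labelled as gut, with 28.7% of counts in pup 1 and 33.3% in pup 2. The reads carry no molecular identifiers and may hold copies of 1 molecule, so the 95% intervals below cover counting error only. In bulk tissue, fewer cells of a type and less RNA per cell cannot be told apart.

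All 3 members were detected, in the order Mir148a, Mir148b, Mir152 in each pup. Levels are in CPM, which scales each gene to 1000000 miRNA gene counts per library. Mir148a was counted 2715 times in pup 1 and 3956 times in pup 2, or 761 CPM (exact Poisson interval 733 to 790) and 845 CPM (818 to 871). Its mean was 803 ± 59.1 CPM (SD, n = 2), rank 92 of 314. By counted reads Mir148a was thus below 29.0% of the detected genes and above the rest, and was far from the leading miRNAs of this tissue. Reads with several mapping places entered no count, so genes with copied mature sequences, such as Mir26a-2 at 57.1 CPM, are undercounted. The ranks here and below, and the family share, therefore hold for counted reads only.

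Mir148b was counted 1366 times in pup 1 and 2284 times in pup 2, or 383 CPM (363 to 404) and 488 CPM (468 to 508). Its mean was 435 ± 74.1 CPM (SD, n = 2), rank 110. Mir152 had 584 and 659 counts in pup 1 and pup 2, which is 164 CPM (151 to 178) and 141 CPM (130 to 151.9). Its mean was 152.2 ± 16.3 CPM (SD, n = 2), rank 153, near the middle of the detected genes. The values of the members did not overlap between members in any pup.

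**Figure D1:**
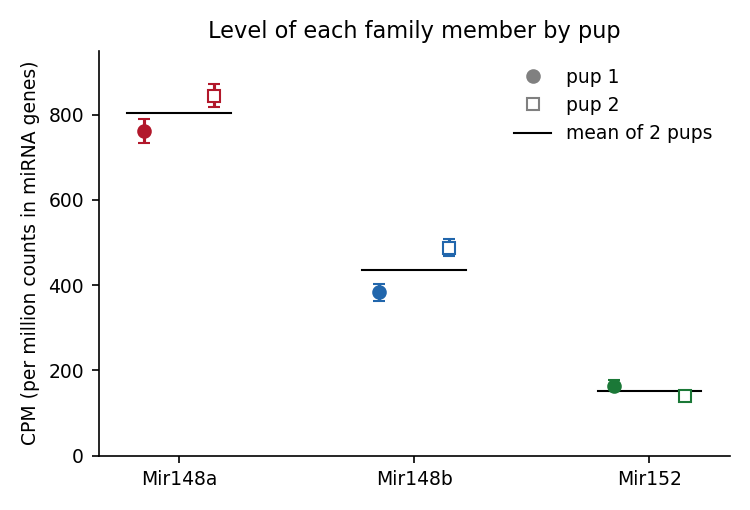
Level of Mir148a, Mir148b and Mir152 in CPM, with pup 1 as filled circles and pup 2 as open squares. Bars are exact Poisson 95% intervals, which cover counting error only, and black lines are means of the 2 pups. Mir148a lies highest, at 761 and 845 CPM, and Mir152 lowest, at 164 and 141 CPM.

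**Figure D2:**
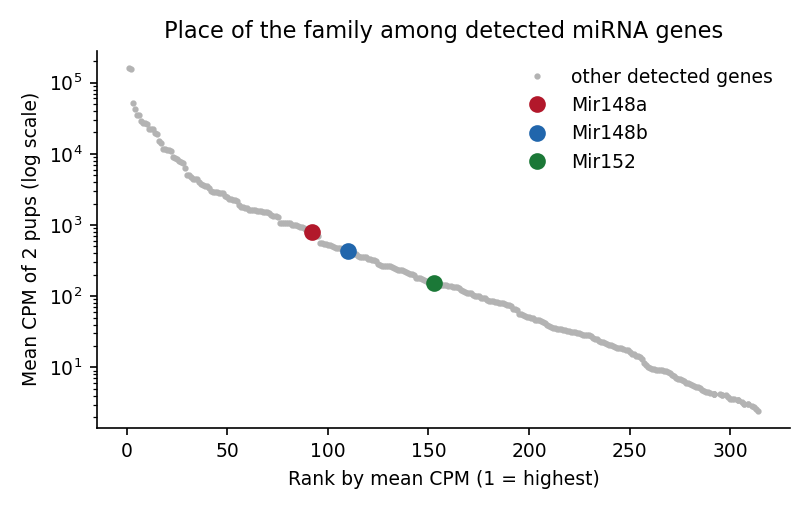
Mean CPM of the 314 detected miRNA genes on a log scale against their rank, with the family members coloured. Mir148a, Mir148b and Mir152 stand at ranks 92, 110 and 153.

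Reads of the family lay on the annotated strand alone. On the opposite strand each member had 0 counts in both libraries. Against its own counts, a count of 0 allows an opposite-strand level of up to 0.110% of the Mir148a counts in pup 1 and 0.0758% in pup 2. For Mir152, the member with the fewest counts, it allows 0.514% and 0.455%. Counts that ignored strand were therefore the same for the members as those on the annotated strand. Over all miRNA genes the opposite strand held 126262 counts in pup 1 and 161133 in pup 2, against 3567658 and 4683939 on the annotated strand. How many other genes had 0 there was not counted, so the 0 cannot be called particular to the family.

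Together the 3 genes took 4665 counts in pup 1 and 6899 in pup 2, or 0.131% (exact binomial interval 0.127 to 0.135) and 0.147% (0.144 to 0.151) of counts in miRNA genes. The family share was 0.139% ± 0.0117 (SD, n = 2). Mir148a made up 58.2% of the family counts in pup 1 and 57.3% in pup 2, with intervals of 56.8 to 59.6 and 56.2 to 58.5 that overlap. Mir148b made up 29.3% (28.0 to 30.6) and 33.1% (32.0 to 34.2), and Mir152 made up 12.5% (11.6 to 13.5) and 9.55% (8.87 to 10.3). The share of Mir148a was thus alike in the littermates within counting error, while the split between Mir148b and Mir152 was not.

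The members were compared with each other within each library, in a table of 50 pairs of paralogs, cluster partners and family sums. Quasi-likelihood tests in edgeR treated the pup as a block, with Benjamini-Hochberg adjustment over all 50 pairs. Of these pairs 96% passed an adjusted p of 0.05, so that unequal levels between related miRNAs were the rule in these libraries and a call for this family says little by itself. Mir148a exceeded Mir148b by 1.99 times in pup 1 and 1.73 times in pup 2. The fitted log2 ratio was 0.89 with an SD of 0.14 over the 2 pups, or 1.85-fold (edgeR adjusted p = 0.000133). Mir148a exceeded Mir152 by 4.65 times in pup 1 and 6.003 times in pup 2, a log2 ratio of 2.40 with an SD of 0.26, or 5.29-fold (edgeR adjusted p = 2.94e-13).

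Mir148b exceeded Mir152 by 2.34 times in pup 1 (exact binomial interval 2.12 to 2.58) and 3.47 times in pup 2 (3.18 to 3.79), a log2 ratio of 1.51 with an SD of 0.40 (edgeR adjusted p = 6.95e-07). The difference between the pups in this ratio was beyond counting error, and its SD was larger than the median SD of 0.18 over the 47 gene pairs tested. Mir148a over Mir152, with an SD of 0.26, was also above that median, and Mir148a over Mir148b was below it. Each of the 3 member ratios kept its sign from pup to pup, as did the ratios of all 47 gene pairs. The 3 member pairs are built from 3 genes and are not independent of each other. Of the 3 member pairs, Mir148b over Mir152 had the least steady ratio, as Mir148b was lower in pup 1 and Mir152 higher. A link to their host genes was not tested.

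Each small RNA read stands for 1 cut product of similar length, so counts were not divided by hairpin length in these ratios. Per base of the annotated hairpin the order was the same. Mir148a was then 1.82-fold above Mir148b (edgeR adjusted p = 0.000212) and 3.90-fold above Mir152 (adjusted p = 9.48e-11), and Mir148b was 2.15-fold above Mir152 (adjusted p = 0.000120). The levels were 811 ± 59.7 CPM per 100 bases of hairpin for Mir148a, 449 ± 76.4 for Mir148b and 208 ± 22.3 for Mir152 (SD, n = 2). The p-values rest on spread pooled over all pairs, since each pair has 1 residual degree of freedom. The common dispersion over all pairs was a coefficient of variation of 11.01%. That value describes the pairs as a set and is not the quasi-likelihood spread behind each p-value. An exact sign-flip test over 2 pups cannot go below 0.5. Ratios between miRNAs also hold any difference in ligation and capture, which cannot be told apart from abundance here.

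The littermates were compared gene by gene with a 2-sided exact binomial test at TMM library sizes, which compares these 2 libraries and no conditions. Of the 314 detected genes 41.1% passed an adjusted p of 0.05, with 21.3% lower and 19.7% higher in pup 1. Mir148b was 0.762 times as high in pup 1 as in pup 2 (interval 0.712 to 0.815), a log2 ratio of -0.39 (exact binomial test, adjusted p = 8.19e-15). Only 15.6% of detected genes were further apart between the pups than Mir148b. Mir148a was 0.875 times as high (0.833 to 0.919), a log2 ratio of -0.19 (exact binomial test, adjusted p = 3.31e-07). That is close to the median absolute log2 ratio of 0.18 over the 314 genes.

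Mir152 had the other sign. It was 1.13 times as high in pup 1 as in pup 2 (interval 1.01 to 1.26), a log2 ratio of 0.18 that did not pass the adjustment (exact binomial test, adjusted p = 0.0784) and did pass with total-count scaling (log2 ratio 0.22, adjusted p = 0.0228). So 2 of 3 members were lower in pup 1 and 1 was not called, which is 2 calls of 3 against a background of 41.1%; 3 genes are too few to read against it. These signs were the same under each scaling tried. Markers of several cell types also differed between the libraries. The 9 epithelial marker miRNAs summed to 286751 CPM in pup 1 and 333027 CPM in pup 2, and 9 of 9 passed the same test as lower in pup 1, though Mir429 was higher in pup 1 on the CPM scale, which uses total counts. Of the erythroid markers, which summed to 100.1 CPM in pup 1 and 145.6 CPM in pup 2, Mir451a was lower in pup 1 (log2 ratio -0.91) and Mir144 did not pass (0.12). Myeloid Mir223 was lower in pup 1 too, with 371 CPM in pup 1 and 421 CPM in pup 2. Enteroendocrine Mir375 passed as lower with a log2 ratio of -0.03. On the CPM scale it was higher in pup 1, with 11352 CPM in pup 1 and 11229 CPM in pup 2, so its direction depended on scaling. Of the smooth muscle markers, Mir143 was higher in pup 1 (log2 ratio 0.23) and Mir145a did not pass (-0.0040). Endothelial Mir126a had 54634 and 49791 CPM in pup 1 and pup 2, and hepatocyte Mir122 had 28.9 and 12.4 CPM, both called higher in pup 1, while lymphocyte Mir150 did not pass (0.03). None of these markers had 0 counts, and their part in the differences of the members was not tested. The largest differences between the pups among detected genes were those of Mir196b (log2 ratio 4.91) and Mir196a-2 (3.31), both called higher in pup 1. The labels name no segment, and whether both libraries held the same stretch of intestine was not tested.

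**Figure D3:**
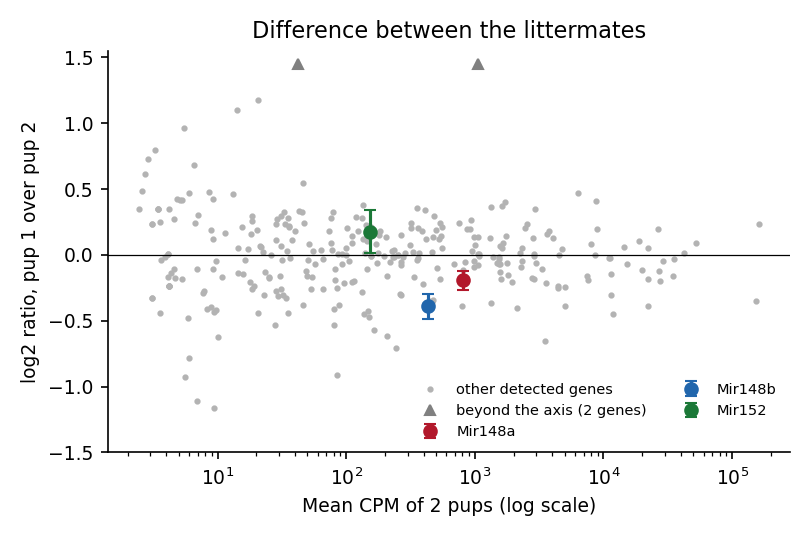
Log2 ratio of pup 1 over pup 2 at TMM scaling against mean CPM on a log scale, for the 314 detected genes. Bars on the coloured members are exact binomial 95% intervals, and triangles mark 2 genes beyond the axis, Mir196b and Mir196a-2. Mir148a (-0.19) and Mir148b (-0.39) lie below 0, and Mir152 (0.18) lies above it.

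The genes most like each member were taken as the 2 detected genes nearest in log2(CPM + 1) over the 2 libraries, so a neighbour is close in each pup by choice, and a shared direction between pups follows from that choice. Mir148a was nearest to Mir185 (812 ± 28.0 CPM) and Mir181d (838 ± 5.31 CPM). Mir148b was nearest to Mir501 (437 ± 64.9 CPM) and Mir16-2 (461 ± 71.4 CPM). Mir152 was nearest to Mir598 (155 ± 19.0 CPM) and Mir676 (146 ± 12.6 CPM). In all 6 cases the means differed by less than the SD of the member (SD, n = 2 throughout). Mir16-2 has a close copy in Mir16-1, so its count is a lower limit.

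The seed letters of the family also occur, shifted by 1 base, in the miR-130 family, which includes miR-301, a group of miRNAs with targets of their own. They are shown here with AGUGCA in capitals, because the shift sets bases 2 to 8 apart although the letters are the same.
mmu-miR-148a-3p: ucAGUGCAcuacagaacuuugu
mmu-miR-130a-3p: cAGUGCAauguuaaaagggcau
mmu-miR-301a-3p: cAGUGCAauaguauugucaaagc
mmu-miR-350-5p: aaAGUGCAugcgcuuuggg
In miR-148a-3p the letters AGUGCA stand at bases 3 to 8, and in the miR-130a and miR-301a products they stand at bases 2 to 7. The search took each mature sequence in its own sense only, over bases 1 to 8, and found the letters in 12 of 1738 mature sequences, or 0.690%. The table holds 1005 hairpins, fewer than the 1973 genes counted, and no product of Mir301b was among the 12, so carriers of the letters may be missed. Of the 12 genes, 11 were matched in the counts, 7 were detected and 3 had 0 counts in both pups. The 3 members of the miR-148 family held 8.15% of the summed counts of these genes in pup 1 and 9.13% in pup 2. Mir350, whose 5p product holds the letters at bases 3 to 8 after another base, had 111 ± 7.18 CPM (SD, n = 2), below all 3 members.

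The miR-148 family summed to 1308 CPM in pup 1 and 1473 CPM in pup 2, while the miR-130 family (Mir130a, Mir130b, Mir301 and Mir301b) summed to 14635 and 14592 CPM. The log2 ratio was -3.40 with an SD of 0.12, so that the miR-130 family was 10.5-fold higher (edgeR adjusted p = 4.55e-29). Mir130a, with 11078 ± 98.9 CPM, and Mir130b, with 2972 ± 25.4 CPM, each exceeded Mir148a. Mir301 had 536 ± 36.4 CPM, between Mir148a and Mir148b, and Mir301b had 28.0 ± 6.65 CPM, below Mir152 (SD, n = 2 throughout).

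The miR-26 family lies in paralogous host genes, as Mir148b and Mir152 do and Mir148a does not. It summed to 26475 CPM in pup 1 and 27964 CPM in pup 2, and the log2 ratio of the miR-148 family to it was -4.29 with an SD of 0.07 (edgeR adjusted p = 1.73e-32). Nearly all of that was Mir26b, with 27147 ± 1054 CPM. Mir26a-1 and Mir26a-2 encode the same mature miRNA, and reads within it map to both genes and were not counted, so the miR-26 sum is a lower limit. The miR-29 family summed to 381 and 393 CPM in pup 1 and pup 2, and the counted reads of the miR-148 family were 3.59-fold above it (log2 ratio 1.84 with an SD of 0.09, edgeR adjusted p = 3.17e-12). Mir29b-1 and Mir29b-2 are such copies too, with 1 and 0 counts in pup 1 and 9 and 6 in pup 2, so the miR-29 sum is a lower limit, and neither the size nor the direction of this difference is fixed by the counts. Mir29a (178 ± 5.14 CPM) and Mir29c (207 ± 12.0 CPM) each had a mean between those of Mir152 and Mir148b (SD, n = 2 throughout).

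**Figure D4:**
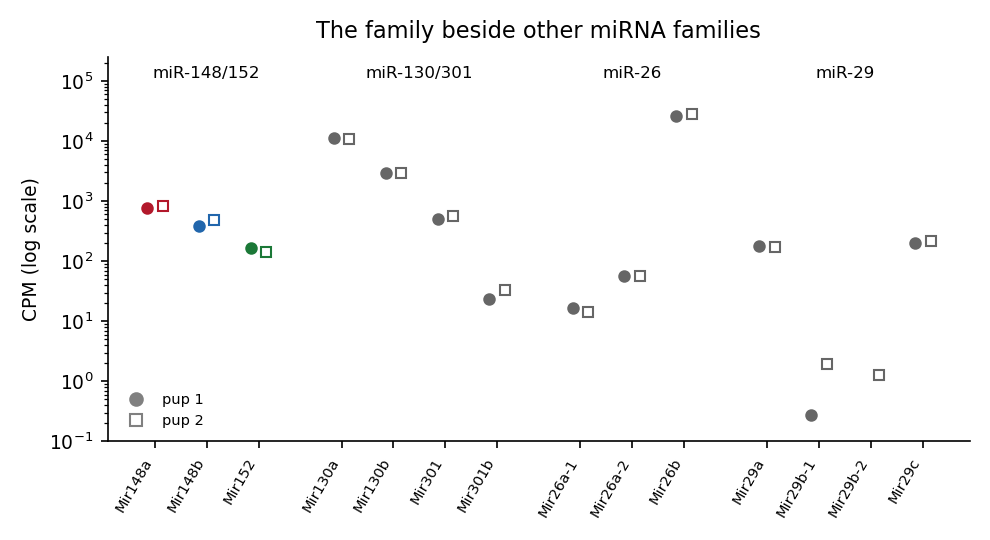
CPM of each member of 4 miRNA families on a log scale, with pup 1 as filled circles and pup 2 as open squares, and the miR-148 family in colour at the left. A value of 0 has no point. Mir130a and Mir26b lie highest, and the members of the miR-148 family lie between 141 and 845 CPM.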

How the data were processed

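MicroRNA sequencing measured small RNA of 2 newborn intestines. The authors deposited raw counts of reads for each miRNA gene, on assembly mm10 with GENCODE M4, per the text deposited with the files; the aligner and counter are not given in the sources used here. Of 3 count columns, their sums show both strands, the annotated strand and the opposite strand. The annotated strand was used. The 4 totals of reads in no gene stayed out: multi-mapped reads were 30.3% of reads in pup 1 and 29.8% in pup 2, unmapped reads 9.35% and 10.1%, and reads outside miRNA genes 2.41% and 2.23%. Of 1973 identifiers 1894 matched GENCODE M21 (GRCm38, the assembly mm10 names); the other 79 held 0 counts.

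A count of 0 allows up to 3 counts. Pair tests used edgeR 4.0.16 (log2 ratios, quasi-likelihood, both members at 10 counts or more in both libraries), with DESeq2 1.42.0 and limma 3.58.1 as alternatives; 61 pairs were listed, 54 were in the files and 50 were tested. The pup comparison used exact binomial tests (scipy 1.17.1). Both were run on simulated data. For the pup comparison these held counting noise only, so that run cannot show how the test fares with further spread between libraries. The libraries differed beyond counting noise and count as 2 samples. The pair p-values rest on the spread of ratios between these 2 libraries pooled over all pairs, not on the spread of 1 pair. The binomial p-values set the difference between the libraries against counting error only. The genes named are the members, their 2 nearest genes in level, the families compared and the genes with AGUGCA in bases 1 to 8. Cell type markers and the 2 genes furthest apart between the pups are named besides. The members, lists and pairs were chosen with earlier results of these data known.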

Additional observations from a re-analysis of the deposited data

How the results depend on the processing

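Levels depended on the denominator by construction. Per 1000000 of all reads Mir148a had 449, Mir148b 244 and Mir152 85.1 counts, and the family share was 0.0778%. Without the highest gene in the denominator they were 956, 518 and 182 CPM and 0.166%. Per 100 bases of hairpin Mir152 had 208 CPM. Each member pair and family pair kept its sign and its call with no replicate block, with DESeq2, with limma, with other library sizes, with strand ignored and with minimums of 1 or 100 counts, and the member pairs also per base of hairpin. With no replicate block the log2 ratio was 0.88 for Mir148a over Mir148b, 2.40 for Mir148a over Mir152 and 1.52 for Mir148b over Mir152. In 1 pup alone a ratio has no test. The number of genes called between the pups was between 120 and 136 in each setting, but the number tested was not the same. It was 129 of 314 in the main setting, 120 of 672 with at least 1 count in either library, and 126 of 227 with at least 100 counts in each. The share called thus depended on the minimum count. Of the calls among the 314 detected genes, 48.1% were higher in pup 1 at TMM scaling, 58.3% with total counts and 35.4% with upper quartiles. Mir148b ranged over scalings and minimums from -0.43 to -0.35 on the log2 scale and Mir148a from -0.23 to -0.15, and both stayed called. The call of Mir152 depended on scaling at the same depth, with an adjusted p of 0.0784 at TMM, 0.0228 with total counts and 0.206 with upper quartiles (exact binomial test). With 2 pups of 1 litter, the spread between litters was not measured.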
